A study of Mus musculus with 3 samples.

Results

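The HoxC cluster is a run of 9 Hox genes on mouse chromosome 15, from Hoxc13 to Hoxc4. GLI3 binding in and around it was described in forelimb buds at embryonic day E10.5 from a list of peaks, the stretches of the genome where chromatin immunoprecipitation (ChIP) reads pile up over input. A peak was taken as a HoxC peak if its summit lay within 100 kb of an annotated transcription start site (TSS) of Hoxc13, Hoxc12, Hoxc11, Hoxc10, Hoxc9, Hoxc8, Hoxc6, Hoxc5 or Hoxc4, and no value of enrichment entered this rule. Of 17149 listed peaks in all, 31 were HoxC peaks. Of these, 27 lay inside the cluster, between the outermost ends of the 9 genes, and 4 lay outside it.

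The embryos had 32 to 35 somites and carried a Gli3 allele with a 3xFLAG epitope on the endogenous protein, kept on a mixed strain background, although the genotype label reads wild type. There were 2 ChIP libraries, each made from the limb buds of 2 litters, and 1 input library of chromatin that was not precipitated. No untagged embryos were analysed here and both ChIP libraries are of 1 group, so there is no contrast between conditions and no test. The single list carries no value per replicate and no read totals, so no enrichment below has a replicate error. For depth, the methods state a minimum per sample, and read totals behind single peaks are not known. Whole forelimb buds were used, and the list therefore cannot tell anterior from posterior cells or one cell type from another. The list holds DNA regions and no transcripts, so the tissue label could not be checked against marker expression.

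GLI3 is a zinc finger transcription factor of the Hedgehog (HH) pathway. Without HH ligand it is cut into a repressor, and this form prevails in the anterior limb bud. Hox genes encode homeodomain transcription factors that give cells their position along the body and limb axes, and their order along the chromosome follows the order of their expression, with group 13 genes the most posterior and distal. In the limb bud the HoxA and HoxD clusters have well known roles in proximodistal and digit patterning, while genes of the 5′ HoxC end such as Hoxc10 and Hoxc11 are known as hindlimb markers and Hoxc4, Hoxc5 and Hoxc6 are expressed at forelimb level.

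The authors' list runs on to weak peaks with a false discovery rate (FDR, the estimated share of false calls) of 1, and the study took peaks with an FDR under 0.05 as bound regions. In HoxC, 6 of 31 listed peaks were under this threshold (19.4%, 95% Wilson interval 9.19 to 36.3%), beside 42.5% of all listed peaks. Such intervals reflect only how many peaks were counted. Of the 6 peaks, 5 were inside the cluster and 1 outside. The sequence at the summit is printed for 5 of the 6, since these peaks carry the strongest GLI3 signal of the locus. The window of the remaining one, ranked 5278, reaches into the end of a coding exon and, in the longer Hoxc4 transcript, into an annotated 3′ UTR, and is not shown. Each line gives the plus strand of GRCm38.p6 (mm10) from 100 bp before to 100 bp after the summit. Capitals mark matches on either strand to the GLI consensus GACCACCCA with at most 1 mismatch, to ATAAA preceded by C and any 1 base (the ATAAA motif, searched for only after these sequences had been read) or to the PBX-HOX motif TGATTNAT. The windows, in order, are chr15:102995947-102996147, chr15:102999312-102999512, chr15:103014612-103014812, chr15:103032822-103033022 and chr15:103128192-103128392.
Peak ranked 4701, between Hoxc8 and Hoxc6: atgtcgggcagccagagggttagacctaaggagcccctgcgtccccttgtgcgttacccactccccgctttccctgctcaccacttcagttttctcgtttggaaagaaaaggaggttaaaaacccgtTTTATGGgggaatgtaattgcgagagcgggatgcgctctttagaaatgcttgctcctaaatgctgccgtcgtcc
Peak ranked 252, in Hoxc6: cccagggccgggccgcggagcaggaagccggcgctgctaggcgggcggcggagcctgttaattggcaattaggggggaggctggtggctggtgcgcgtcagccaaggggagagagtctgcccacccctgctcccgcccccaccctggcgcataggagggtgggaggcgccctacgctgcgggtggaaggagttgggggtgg
Peak ranked 604, in Hoxc5 beside Mir615: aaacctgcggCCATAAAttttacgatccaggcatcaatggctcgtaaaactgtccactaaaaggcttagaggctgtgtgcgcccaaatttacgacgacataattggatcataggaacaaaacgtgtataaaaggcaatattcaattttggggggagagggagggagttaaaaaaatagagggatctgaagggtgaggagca
Peak ranked 2953, in Hoxc4: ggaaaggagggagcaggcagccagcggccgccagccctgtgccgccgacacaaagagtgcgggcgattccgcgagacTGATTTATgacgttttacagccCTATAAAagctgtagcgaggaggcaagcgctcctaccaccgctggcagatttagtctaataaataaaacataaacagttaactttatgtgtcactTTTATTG
Peak ranked 1634, in D930007P13Rik: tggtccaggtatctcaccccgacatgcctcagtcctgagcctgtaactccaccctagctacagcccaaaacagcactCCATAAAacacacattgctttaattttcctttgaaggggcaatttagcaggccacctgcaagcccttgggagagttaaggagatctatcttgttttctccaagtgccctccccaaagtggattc

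The peak ranked 252 was the strongest of the locus. It ran from 102998750 to 103000449 on chromosome 15, a length of 1700 bp, and its log2 fold enrichment of ChIP over input was 3.998, or 16.0-fold. This value was higher than that of 98.5% of all listed peaks and of 96.5% of those under the FDR threshold. Ordered by the Poisson p-value in place of the T statistic that the authors used for ranking, it stood at position 174 of the whole list. Its summit at 102999412 lay in introns of 2 noncoding transcripts, one of Hoxc5 and one of Hoxc6. It was 1117 bp before the start of another noncoding transcript of Hoxc6 and 10161 bp before the start of the coding transcript of Hoxc6, so the peak was not at the coding promoter. At 65.3% its GC content was the highest of the 31 HoxC peaks.

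The peak ranked 604 covered positions 103014350 to 103015049, and its log2 fold enrichment was 3.61. Its summit at 103014712 was in an intron of the coding transcript of Hoxc5, 897 bp after the Hoxc5 coding TSS. The peak covered the whole Mir615 hairpin (103014910 to 103015001), which encodes a microRNA of the same intron and starts 198 bp beyond the summit. Another listed peak, ranked 8258, overlapped the Hoxc5 start, with its summit 347 bp into the gene in a coding exon. Its log2 fold enrichment was 2.24 and its FDR 0.079894, so the weaker of the 2 peaks was the nearer to the Hoxc5 TSS.

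At Hoxc4 there were 2 peaks under the threshold. The one ranked 2953 (103032800 to 103033099) had a log2 fold enrichment of 2.81 and lay 1473 bp before the start of the shorter of the 2 Hoxc4 transcripts, in an intron of the longer one. The one ranked 5278 (103034650 to 103035349) had a log2 fold enrichment of 2.49 and a summit 842 bp after that start. Between them was a listed peak ranked 13401, at 1.97 and an FDR of 0.727328. The start of the longer transcript, at 103018934, had no listed peak within 2 kb, and the nearest peak summit to it was that of rank 604, 4222 bp upstream in Hoxc5.

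The remaining peak inside the cluster, ranked 4701 (102996000 to 102996349), had a log2 fold enrichment of 2.55 and an FDR of 0.007055. It lay 5440 bp after the coding TSS of Hoxc8, 4158 bp after the other Hoxc8 TSS and 2210 bp before the first Hoxc6 transcript. That transcript is the noncoding one whose intron holds the strongest peak. The peak outside the cluster, ranked 1634 (103128100 to 103128499), had a log2 fold enrichment of 3.11. It was in an intron of the long noncoding RNA gene D930007P13Rik, 93.9 kb beyond the start of the shorter Hoxc4 transcript. The 2 peaks differed in their CpG content, with a ratio of observed to expected CpG of 0.813 at rank 4701 and 0.0349 at rank 1634, the highest and the lowest of the 6.

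**Figure D1:**
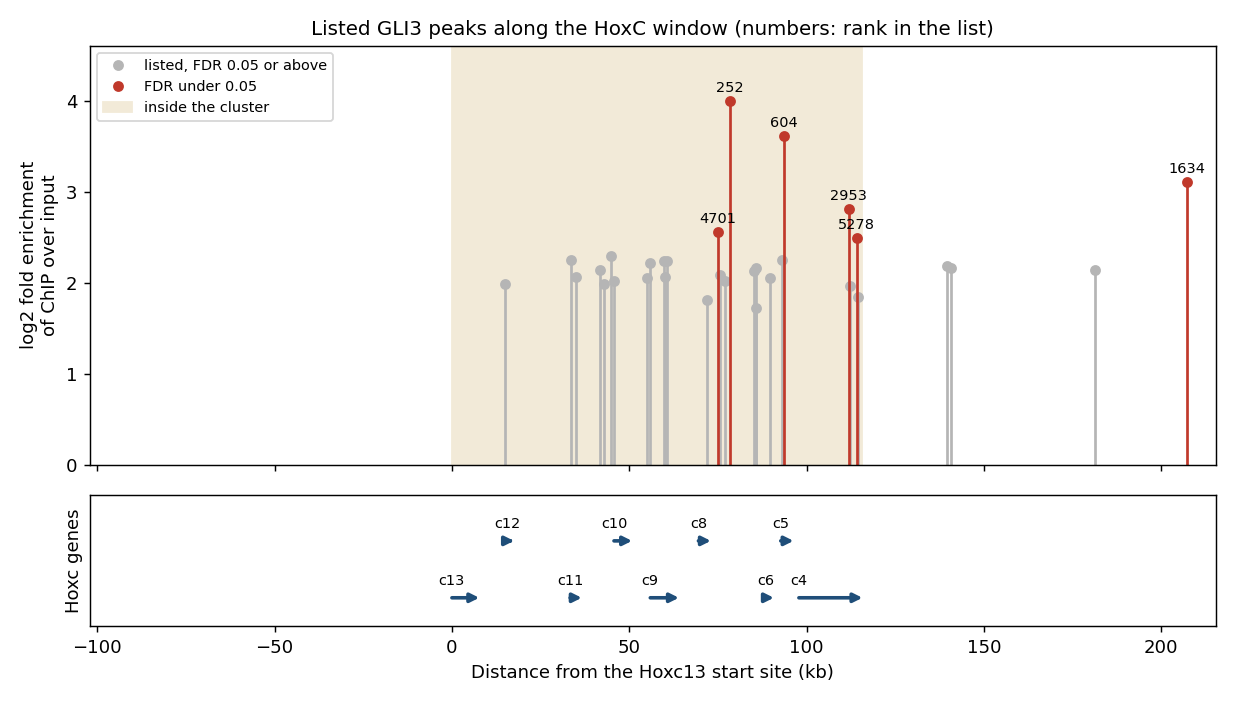
Log2 fold enrichment of each of the 31 HoxC peaks against its distance in kb from the Hoxc13 start site (each stem is 1 peak, red for an FDR under 0.05, grey for the others, shading for the cluster), with the 9 genes below as arrows from the start of the coding transcript in the direction of transcription. The 5 red peaks inside the cluster all lie beyond the Hoxc8 start, the highest at 3.998 in an intron of Hoxc6, and no peak lies in the 100 kb before Hoxc13.

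Listed peaks were denser inside the cluster than around it. The cluster spans 115.75 kb (102921103 to 103036852) and held 2.33 listed peaks per 10 kb, against 0.0629 over all placed chromosomes, a ratio of 37.1. Listed peaks covered 8.16% of its length. For peaks under the FDR threshold the density inside was 0.432 per 10 kb, 16.2 times that of the placed chromosomes. The flank before Hoxc13 had 0 listed peaks in 100 kb, and the flank after Hoxc4 had 4 in 97.5 kb, 1 of them under the threshold. Relative to the placed chromosomes the flank after Hoxc4 was itself 6.52 times as dense in listed peaks and 3.84 times in those under the threshold, and both flanks together 3.22 and 1.89 times. Taking both flanks together, density was 11.5 times as high inside as outside for listed peaks and 8.53 times for those under the threshold, the second ratio resting on the 1 outside peak. With the cluster ended at the outermost TSSs the second ratio was 3.53.

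By position, the cluster fell into a part with weak peaks only and a part that held the strong ones. From the Hoxc13 start to the Hoxc8 start, 69.5 kb, there were 12 listed peaks and 0 under the threshold (interval 0 to 24.2%). From the Hoxc8 start to the end of Hoxc4, 46.2 kb, there were 15 listed peaks, 5 of them under it (33.3%, interval 15.2 to 58.3%). The share over all listed peaks, 42.5%, was above both shares and inside the interval of the second stretch. The intervals overlap, and the split at Hoxc8 was chosen after the values had been seen. Log2 fold enrichment reached 2.29 in the first stretch and 3.998 in the second, while the medians were 2.10 and 2.13. Most peaks of the second stretch were thus as weak as those of the first.

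The intervals between neighbouring genes were uneven. The 12.4 kb from Hoxc11 to Hoxc10 held 6 listed peaks (4.85 per 10 kb), the highest density of any interval, and 0 of the 6 were under the threshold. The 19.0 kb from Hoxc8 to Hoxc6 held 8 (4.22 per 10 kb), of which those ranked 4701 and 252 were under it. Between Hoxc12 and Hoxc11, where the long noncoding RNA gene Hotair is located, there were 0 listed peaks in 17.7 kb. The 2 peaks between Hoxc10 and Hoxc9, with log2 values of 2.06 and 2.22, lay at the Hoxc9 start, and the microRNA gene Mir196a-2 of the same interval had none over it. From Hoxc9 to Hoxc8 there were 3 listed peaks, all within the Hoxc9 gene.

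**Figure D2:**
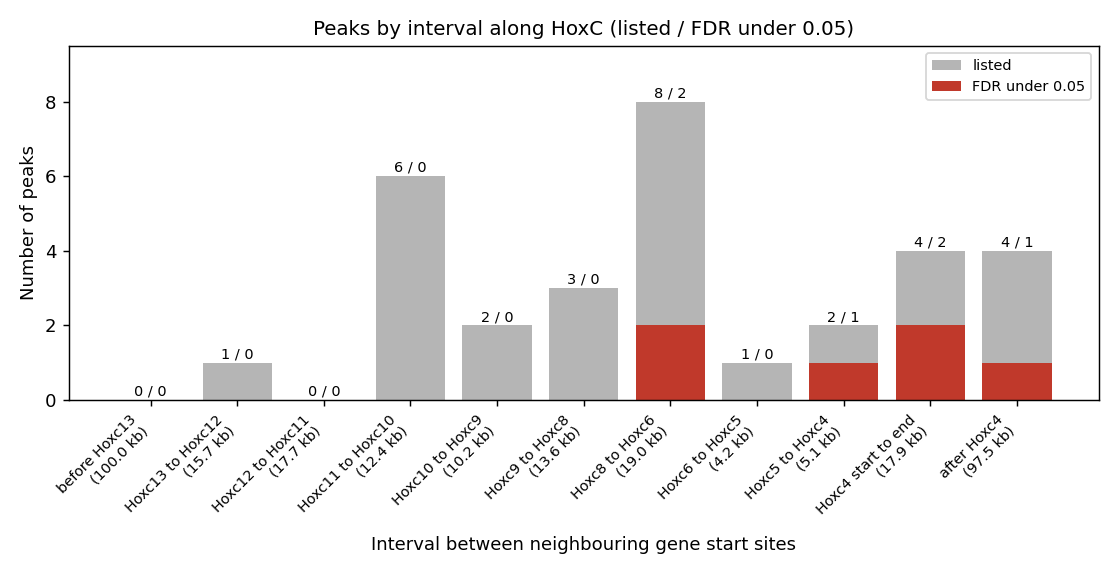
Number of listed peaks (grey bars) and of those with an FDR under 0.05 (red, drawn over the grey) in each interval between neighbouring gene starts, with interval lengths in kb; each bar is labelled with both counts. No interval before Hoxc8 has a red bar, although Hoxc11 to Hoxc10 has 6 listed peaks.

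Within 2 kb of a TSS, 8 of the 9 genes had a listed peak, beside 32.4% of 21911 protein-coding genes. Hoxc13 was the exception, with its nearest peak 14869 bp away. For peaks under the FDR threshold the count was 3 of 9 genes (Hoxc6, Hoxc5 and Hoxc4), beside 18.1% of all genes. Neighbouring Hox genes share peaks and many have several TSSs, so these counts are not independent. Counted within 100 kb, where the windows of the 9 genes largely coincide, each gene had 23 to 31 listed peaks. The median protein-coding gene had 2, and for none of the 9 did more than 0.256% of all genes have as many or more. Counts under the threshold were 3 to 6, beside a median of 1. For Hoxc13, with 3, 18.1% of all genes had as many or more, and for Hoxc4, with 6, 3.41% had.

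At the genes from Hoxc12 to Hoxc8 the peaks nearest a TSS were weak. The peak nearest the Hoxc11 start (rank 8183) was 155 bp inside the gene, with a log2 fold enrichment of 2.25 and an FDR of 0.070924. At Hoxc10 a peak 64 bp before the start (rank 12201) had a value of 2.02, and another 844 bp before it (rank 7654) had 2.29 and an FDR of 0.070419, the lowest of the 25 HoxC peaks past the threshold. Hoxc12 had 1 peak, 785 bp before its start, at 1.98. Hoxc8 had 1, within the gene, at 1.81 and an FDR of 1. None of these values reached the lowest of the 6 peaks under the threshold, 2.49. Over the whole list the lowest value under the threshold was 2.3142 and the highest past it 2.3139. The values of 2.29 at Hoxc10 and 2.25 at Hoxc11 were thus close to the cut. Log2 enrichment and FDR come from the same reads, so the gap to 2.49 describes the list and is not separate evidence.

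The 25 HoxC peaks past the threshold had a median log2 fold enrichment of 2.08 (1.72 to 2.29), beside 2.02 for all listed peaks past it. The 6 under it had a median of 2.96 (2.49 to 3.998), beside 2.69 for all peaks under it. They were also longer, with a median of 550 bp against 400 bp over all peaks under the threshold. On the −log10 scale the smallest Poisson p-value of the 6 ranged from 12.01 at rank 4701 to 76.9 at rank 252. By this measure the 2 sets overlapped, since the peak ranked 15834, 285 bp from the summit of rank 5278 in Hoxc4, had 12.9 although its FDR was 1. A count of peaks depends on how a broad signal is divided. Of the 31 HoxC summits, 18 had another listed summit within 1 kb, as had 31.8% of all listed peaks, and merging such summits left 21 regions. The 6 peaks under the threshold stayed 6.

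**Figure D3:**
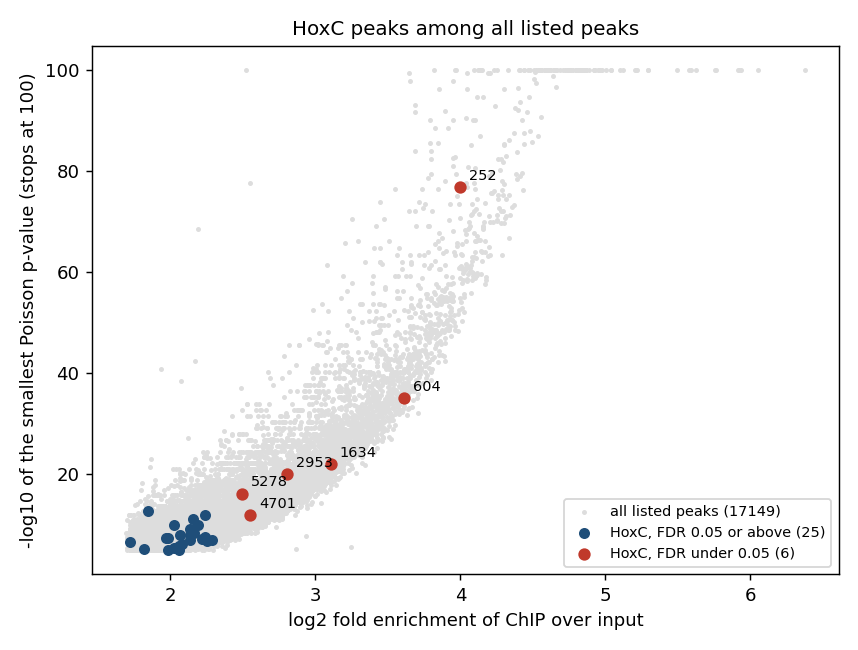
Log2 fold enrichment (horizontal axis) against −log10 of the smallest Poisson p-value (vertical axis, stops at 100) for all 17149 listed peaks in grey, the 25 HoxC peaks past the FDR threshold in blue and the 6 under it in red with their ranks. The blue points sit at the low end of both axes, and the peak ranked 252 stands alone at 3.998 and 76.9.

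Overlap with a promoter window, 2 kb before to 1 kb after the TSS of a protein-coding transcript, was found for 11 of 31 listed HoxC peaks (35.5%, interval 21.1 to 53.1%), beside 48.1% of all listed peaks. Of the 6 under the threshold it was 3 (50%, interval 18.8 to 81.2%), beside 52.6%. These were the peak in Hoxc5 and both peaks at Hoxc4. The strongest peak was not among them because the start it lies near belongs to a noncoding transcript.

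Few HoxC peaks had a match to the GLI consensus. A match to GACCACCCA or its reverse complement with at most 1 mismatch, within 250 bp of the summit, was found in 2 of 31 listed HoxC peaks (6.45%, interval 1.79 to 20.7%), beside 17.9% of all listed peaks. Among the 6 under the threshold it was found in 0 (interval 0 to 39.03%), beside 20.8% of all such peaks. Searching the whole length of each of the 6 peaks gave 0 as well. This stretch was longer than the window around the summit for ranks 252 (1700 bp), 604 and 5278 (700 bp each). For ranks 4701 (350 bp), 2953 (300 bp) and 1634 (400 bp) it was shorter. With so few peaks the interval still includes the share over all peaks. In consecutive windows of the same length across the cluster, 12.6% of 231 held a match. The study instead mapped a GLI motif, found de novo in its best bound regions, with a matrix scan. It reported motifs in larger shares of its acetylated bound regions than the consensus gave for all peaks under the threshold. Sites with more mismatches were not searched for here, so the 0 does not exclude other GLI-like sites in the 6 peaks.

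Both matches were at weak peaks and each had 1 mismatch. The peak ranked 8707, with a log2 fold enrichment of 2.22 and an FDR of 0.132755, had GACAACCCA (C4A, counted from 1 at the 5′ end of the consensus) centred 7 bp from its summit, on the plus strand at 102976815 to 102976823. This summit lay 220 bp before the start of the coding Hoxc9 transcript nearest to it. The match is shown in capitals in the window chr15:102976712-102976912 of the same strand, the only one of the 31 windows of 100 bp on each side of a HoxC summit to hold such a match.
Peak ranked 8707, at Hoxc9: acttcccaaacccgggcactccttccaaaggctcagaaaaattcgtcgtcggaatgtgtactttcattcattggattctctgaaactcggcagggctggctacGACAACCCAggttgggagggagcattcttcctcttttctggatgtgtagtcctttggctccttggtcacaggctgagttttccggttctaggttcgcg

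The other match, GAGCACCCA (C3G) at 102996876 to 102996884, was 108 bp from the summit of the peak ranked 11142 (log2 2.08, FDR 0.250768), between Hoxc8 and Hoxc6. That summit was 725 bp from rank 4701. The match lay beyond the end of its peak at 102996849, so rank 8707 was the only HoxC peak with a match within its own length. A match is a description of the letters and does not show that GLI3 contacts them.

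For 3 other short motifs the interval around the HoxC share included the share over the whole list. The MEIS motif TGACAG was in 5 of 31 listed HoxC peaks, 16.1% (interval 7.09 to 32.6%) beside 26.4% of all. The PBX-HOX motif TGATTNAT was in 2 of 31, 6.45% (interval 1.79 to 20.7%) beside 6.33%, and the GC box GGGCGG in 13 of 31, 41.9% (interval 26.4 to 59.2%) beside 50.4%. Each was searched exactly on both strands within 250 bp of the summit. The 2 peaks with the PBX-HOX motif were rank 2953 at Hoxc4, where TGATTTAT lay 19 bp from the summit, and rank 9740 in the flank, 9 bp from it.

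Of the sequences printed above, those of ranks 4701, 604, 2953 and 1634 hold the ATAAA motif, and those of ranks 252 and 8707 do not. Its forms CCATAAA and CAATAAA are known as sites of posterior group Hox proteins, and CTATAAA resembles a TATA box. On either strand within 100 bp of the summit it was in 5 of the 6 HoxC peaks under the threshold (83.3%, interval 43.6 to 97.0%), beside 8.68% of all peaks under it. Among the other 25 HoxC peaks it was in 2, and among all 31 in 7 (22.6%, interval 11.4 to 39.8%), beside 8.85% of all listed peaks. Within 250 bp, the window used for the other motifs, it was in the same number, 5, of the 6, but in 9 of the other 25 and in 14 of all 31 (45.2%, interval 29.2 to 62.2%), beside 16.3% of all peaks under the threshold and 18.0% of all listed peaks. The gap between the 6 and the other 25 was thus smaller with the wider window. Of 575 consecutive windows of the narrower length across the cluster, 12.7% held it. The centres of the matches nearest the summit were 2 bp away at rank 2953, 20 bp at rank 1634, 30 bp at rank 4701, 87 bp at rank 604 and 95 bp at rank 5278, so they were not at a fixed place. Because the motif was picked from the same 6 peaks, the 5 of 6 is a description and supports nothing. HoxC peaks under the threshold had a median GC content of 53.0%, beside 58.7% for all such peaks, and the part of base composition in this count was not tested. Peaks under the threshold around the other Hox clusters had it in 5 of 19 (26.3%) at HoxA, 6 of 15 (40%) at HoxB and 6 of 26 (23.1%) at HoxD.

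Beside the other Hox clusters, defined by the same rule, HoxC had the fewest peaks under the FDR threshold. Around it were 31 listed and 6 under the threshold, against 60 and 19 for HoxA, 38 and 15 for HoxB, and 50 and 26 for HoxD. Per Mb of window, listed peaks numbered 98.9 at HoxC, 102.2 at HoxB, 169.7 at HoxD and 198.3 at HoxA, so HoxC was close to HoxB, and inside the cluster it had 2.33 listed peaks per 10 kb beside 2.01 at HoxB, 3.92 at HoxD and 4.94 at HoxA. Inside the clusters, peaks under the threshold per 10 kb were 0.432 at HoxC, 0.805 at HoxB, 1.61 at HoxA and 1.96 at HoxD. Per Mb, peaks under the threshold numbered 19.2 at HoxC, 62.8 at HoxA, 40.3 at HoxB and 88.2 at HoxD. The density of peaks under the threshold at HoxC was 0.309 times that of the other 3 clusters together, and 0.648 times for all listed peaks. The share under the threshold was 19.4% at HoxC, 31.7% at HoxA (interval 21.3 to 44.2%), 39.5% at HoxB (25.6 to 55.3%) and 52% at HoxD (38.5 to 65.2%). The HoxC interval overlaps those of HoxA and HoxB and lies below that of HoxD. The differences were not tested, since peaks of 1 locus are not replicates.

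The strongest HoxC peak was the lowest of the cluster maxima, at a log2 fold enrichment of 3.998 (rank 252). The others were 4.19 at HoxA (rank 157), 4.51 at HoxB (rank 82) and 4.31 at HoxD (rank 119). Number of peaks and height of the top peak are on different scales, so which differed more cannot be read from these values. By the same consensus search, a GLI motif was in 0 of 6 peaks under the threshold at HoxC and 0 of 15 at HoxB. It was in 4 of 19 (21.1%) at HoxA and 7 of 26 (26.9%) at HoxD, beside 20.8% of all peaks under the threshold.

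The paralogue groups were also counted side by side. In groups 9 to 13, 0 of 5 Hoxc genes had a peak under the threshold within 2 kb of a TSS, against 2 of 4 Hoxa, 1 of 2 Hoxb and 4 of 5 Hoxd genes. With 18.1% of all protein-coding genes having such a peak, 0 of 5 is near the background, and no difference between clusters was tested. In groups 1 to 8 the counts were 3 of 4 for HoxC, 4 of 7 for HoxA, 6 of 8 for HoxB and 3 of 4 for HoxD. The widest gaps to a HoxC paralogue in the number of peaks under the threshold were at Hoxa9 and Hoxd11, with 4 each and highest log2 values of 3.85 and 2.97, beside 0 and 2.22 at Hoxc9 and 0 and 2.25 at Hoxc11. Hoxd12 had 2 such peaks and a highest value of 4.31, beside 0 and 1.98 at Hoxc12. Hoxc6 went the other way, having 1 with 3.998, counted from a noncoding transcript start, while Hoxb6 had 0 and Hoxa6 had no listed peak. Hoxc5 had 1 with 3.61, Hoxa5 1 with 2.43 and Hoxb5 0. Genes with more annotated TSSs were searched over more sequence, with 3 TSSs at Hoxc6, 1 at Hoxa6 and 2 at Hoxb6, and 5 at Hoxa9 beside 2 at Hoxc9.

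**Figure D4:**
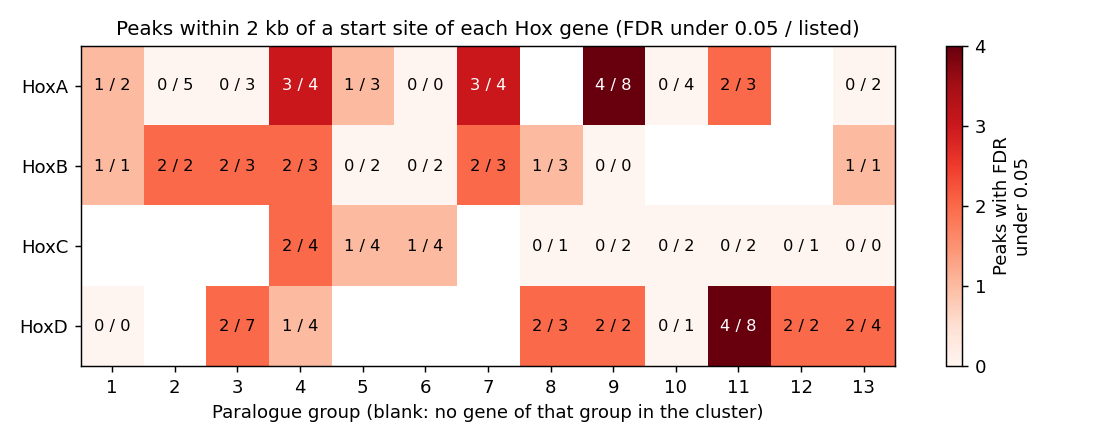
Peaks within 2 kb of a TSS of each of the 39 Hox genes by cluster (rows) and paralogue group (columns); each cell gives peaks with an FDR under 0.05 / listed peaks, and its colour the first of these counts. Hoxc4, Hoxc5 and Hoxc6 have 2, 1 and 1 peaks under the threshold, and the 6 Hoxc genes of groups 8 to 13 have 0.

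The limit of 100 kb set which outer peaks counted. Just inside it were rank 10085 at 67.9 kb and rank 1634 at 93.9 kb from the nearest member TSS, and just beyond it were rank 1986 at 143.6 kb (log2 3.02) and rank 894 at 148.2 kb (log2 3.42), both upstream of Smug1. Further out, 181.0 kb from the shorter Hoxc4 transcript and 16 bp before the start of Cbx5, which encodes a heterochromatin protein, the peak ranked 134 had a log2 fold enrichment of 4.27, above any HoxC peak. On the Hoxc13 side the first peak under the threshold was rank 2029 (log2 3.004), 168.7 kb away and upstream of Calcoco1. The peak-free flank before Hoxc13 was thus part of a longer stretch without listed peaks that ran from 167.5 kb before Hoxc13 to the peak 14869 bp after its start.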

How the data were processed

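GLI3 was measured by FLAG ChIP-seq in 2 ChIP libraries and 1 input library. Per the submitters' processing notes reads were aligned with Bowtie2 2.2.5 to mm10, and per the methods of the study peaks were called with CisGenome. The authors deposited 1 peak list, treated here as a joint call of both replicates, which the list does not state. For every peak the authors deposited a q-value (the FDR), a log2 fold enrichment of ChIP over input and a T statistic (a score, by which they ranked peaks). The −log10 of the lowest Poisson p-value of a peak, also deposited, stops at 100. Deposited starts and lengths, in bp, are multiples of 50, while summits are not. Ends are closed, so positions could be counted from 0. They were used and printed as listed, and reading them 1 base later gave the same GLI motif calls in the 6 peaks under the threshold. Libraries were amplified with 15 PCR cycles. The methods of the study state a minimum sequencing depth per sample. Exact read totals are not in the list.

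TSSs came from GENCODE M21 and sequence from GRCm38.p6 (RefSeq). Counts, medians and densities were computed with Python 3.11.15, pandas 2.3.3 and numpy 2.4.6, and shares were given 95% Wilson intervals with scipy 1.17.1. Motif and promoter shares omit 5 listed peaks on unplaced scaffolds. No test was run. Assignment of summits to windows, window length, merging of summits and the motif search were tested on simulated data. The other steps were not. Alternatives changed the FDR threshold, distances, TSSs, cluster limits, merging of summits, promoter window and motif search. Genes named were the 9 members, their Hox paralogues and genes nearest to a peak, by rule. Smug1, Cbx5, Calcoco1, Hotair and Mir196a-2 were named outside it after values were seen. The members and lists were chosen with earlier results of these data known.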

Additional observations from a re-analysis of the deposited data

How the results depend on the processing

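For 10 results, 40 alternatives were run, 2 of them (positions counted from 0, and HoxB without Hoxb13) chosen after seeing the data. Of these, 35 stayed within 1.5 times the reported count or ratio, inside the reported interval, or on the same peak, and 5 moved. Reversals were not scored. For the median log2 fold enrichment the interval ran from the lowest to the highest of the 6 values. Medians of subsets of these 6 could not leave it. For the GLI motif share of 0, stricter settings could only return 0 again. Such alternatives say nothing about robustness. A distance of 200 kb raised the HoxC peaks under the FDR threshold from 6 to 11. Counting all listed peaks in place of those under the threshold gave 27 inside the cluster, a median log2 fold enrichment of 2.13, and a density of 0.648 relative to the other Hox clusters. Ending the cluster at the outermost TSSs put the peak ranked 5278 outside it and lowered the ratio of inside to outside density from 8.53 to 3.53. With a distance of 50 kb no peak under the threshold lay outside, so that ratio has no value. An FDR under 0.01 left 5 HoxC peaks, dropping rank 5278. No paired analysis was possible because replicates were combined into 1 call with no column for each, and leaving out each replicate was not run for the same reason. Depth cannot be read from the list, so whether the weak peaks from Hoxc13 to Hoxc8 would pass the threshold with more reads was not tested.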
